A study of Arabidopsis thaliana with 11 samples.

Results

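The genes described here are the cyclins, cyclin-dependent kinases (CDKs) and CDK inhibitors that drive or restrain the cell division cycle of Arabidopsis thaliana. They were listed by gene identifier and not by a cut on their values, though earlier results of these data were known. The list holds 8 A-type, 8 B-type and 10 D-type cyclins, CDKA;1 and the 4 CDKB genes. It also holds the 7 KIP-related inhibitors KRP1 to KRP7, the inhibitors SIM and SMR1, and the kinase WEE1. All 41 were found among the 33602 genes of the expression table. Of these, 38 had at least 1 RPKM (reads for each kilobase of gene length, scaled to sequencing depth) in at least 2 of the 6 genotypes and were compared, as were 19669 genes in all. The 3 members left out of the comparisons were an A-type cyclin and 2 D-type cyclins, which are given below by their levels.

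Whole seedlings of ecotype Columbia, 11 days old and raised in continuous light on medium with 2% sucrose, were profiled by RNA sequencing to ask how raised and lowered amounts of the 3 polypyrimidine tract-binding (PTB) protein homologues change the transcriptome. WT was labelled wild type. In MI12 a miRNA lowers PTB1 (AT3G01150) and PTB2 (AT5G53180), and in MI3 a miRNA lowers PTB3 (AT1G43190). OE1 overexpresses PTB1, OE2 overexpresses PTB2 and OE3 overexpresses PTB3. The labels give neither the promoters that drive these constructs nor the number of independent lines. There were 2 libraries for each genotype except MI3, which had 1, but the table holds 1 value per gene and genotype. No spread between replicates exists for any value below, no difference has a test or a p-value, and a difference between columns may come from the genotype or from the plants and libraries behind that column.

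The labels were checked against the targeted genes. PTB1 (AT3G01150) was at 9.46 RPKM for WT, 2.54 for MI12, 7.70 for MI3, 603 for OE1, 6.49 for OE2 and 9.42 for OE3. PTB2 (AT5G53180) was at 9.03 RPKM for WT, 4.01 for MI12, 8.04 for MI3, 5.74 for OE1, 343 for OE2 and 8.23 for OE3. PTB3 (AT1G43190) was at 19.5 RPKM for WT, 18.4 for MI12, 3.54 for MI3, 21.3 for OE1, 20.14 for OE2 and 65.4 for OE3. Each targeted gene lay on the labelled side of WT. Depth recovered from the steps between low values was between 79500000 and 96000000 reads per column, except for MI3 with 46200000 reads. The median compared member held between 828 and 1193 reads per column, and 542 in MI3. Intervals given for ratios are 95% exact counting intervals on these recovered reads, which cover counting error only and no difference between plants. All comparisons against WT share the same WT column.

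Cell division in plants is driven by CDKs that are active only when bound to a cyclin. D-type cyclins with CDKA;1 link growth signals such as sucrose and cytokinin to entry into DNA replication, by phosphorylating the retinoblastoma protein RBR1 and so freeing E2F transcription factors. A-type cyclins act mainly during replication and the phase after it, and B-type cyclins with the plant-specific CDKB kinases act at mitosis, when MYB3R transcription factors activate their genes through promoter elements with the core AACGG. KRP, SIM and SMR proteins bind cyclin-CDK complexes and hold them inactive, which arrests cells or turns dividing cells to endoreduplication. In a seedling most dividing cells lie in the root and shoot meristems and in young leaves, so cyclin transcripts come from a small share of the tissue. In whole seedlings fewer dividing cells and less transcript per cell cannot be told apart.

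OE1, the PTB1 overexpressor, had the lowest value of the 6 genotypes for 26 of the 38 compared members (68.4%), against 22.8% of all compared genes, and the highest value for none, against 21.8%. These 26 held all 8 B-type cyclins (7 of 8 with quantile normalization, which leaves out CYCB1;1), all 4 CDKB kinases and 5 of 7 compared A-type cyclins. The differences were small: the median of the 38 members was -0.22 in OE1 against WT on the log2(RPKM + 1) scale, beside -0.01 for all compared genes, and no member was at least 1.5-fold lower or higher on that scale, where 3.83% and 1.41% of all compared genes were. In MI3, the line with lowered PTB3, KRP1 and KRP2 were at least 1.5-fold above WT and KRP6 at least 1.5-fold below it. These 2 of 38 higher members (5.26%) and 1 lower member (2.63%) stand beside 8.99% and 6.31% of all compared genes, so such calls were no more frequent among the members than elsewhere. In MI12, OE2 and OE3 no member was 1.5-fold apart from WT on the log2(RPKM + 1) scale, though KRP7 in MI12 was as a plain ratio. In none of the lines was a member 2-fold apart on that scale. At 1.5-fold, 1.13% of all compared genes were higher and 1.57% lower in MI12, 1.36% and 1.5% in OE2, and 2.35% and 2.16% in OE3. At 2-fold, 0.234% of all compared genes were higher and 0.269% lower in MI12, 2.58% and 2.07% in MI3, 0.31% and 0.6% in OE1, 0.259% and 0.183% in OE2, and 0.503% and 0.529% in OE3. The lists of members and of related genes were drawn up with earlier results of these data known, among them lower cell division genes in OE1, so the pattern is described and not independently supported.

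**Figure D1:**
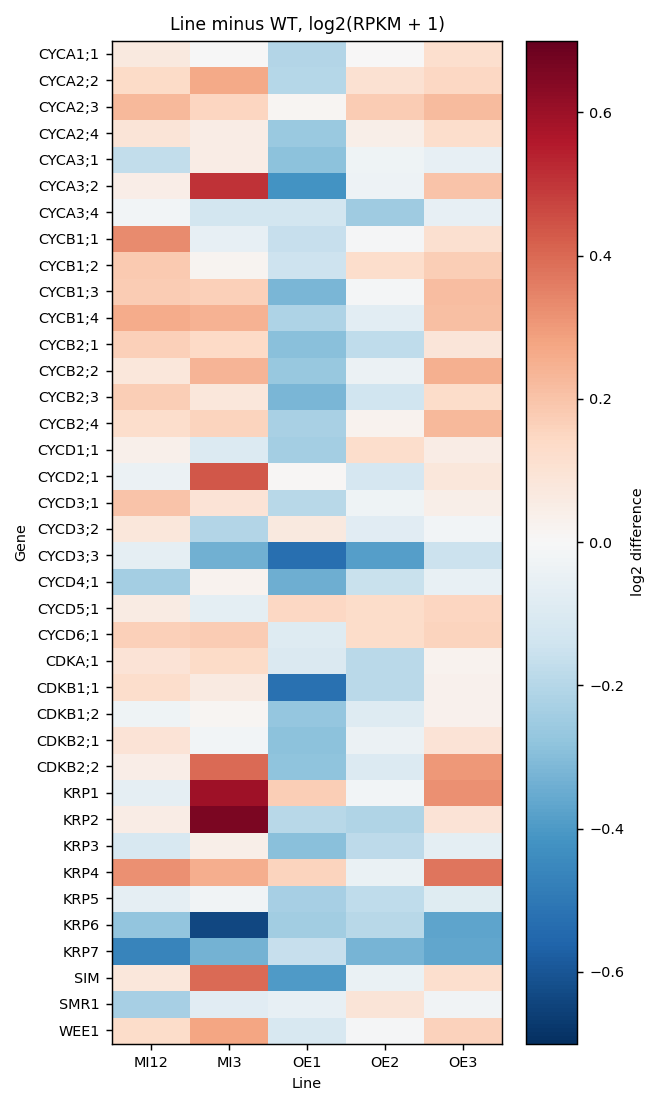
Difference of each line from WT, log2(RPKM + 1), for the compared members (rows, grouped by family) in the 5 lines (columns), coloured from lower to higher than WT. In the OE1 column 32 of 38 members lie below WT, beside 51.1% of all compared genes. The 8 B-type cyclins and the 5 CDKs are all on that side. In the MI3 column KRP1 and KRP2 stand out above WT and KRP6 below it.

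Levels differed far more between members than between genotypes. In WT the compared members ranged from 0.84 to 36.6 RPKM with a median of 4.42, beside 8.67 for all compared genes. For a single member the highest genotype was between 1.21 and 2.01 times the lowest, with a median of 1.49 over the members and of 1.40 over the 19655 compared genes above 0 in every genotype. The steps between low values fit division by the whole gene span, introns included, better than division by exon length, so levels of genes with long introns are understated relative to genes with short ones. Plain ratios between genotypes for the same gene do not depend on that divisor, but differences of log2(RPKM + 1) and the filter at 1 RPKM do.

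**Figure D2:**
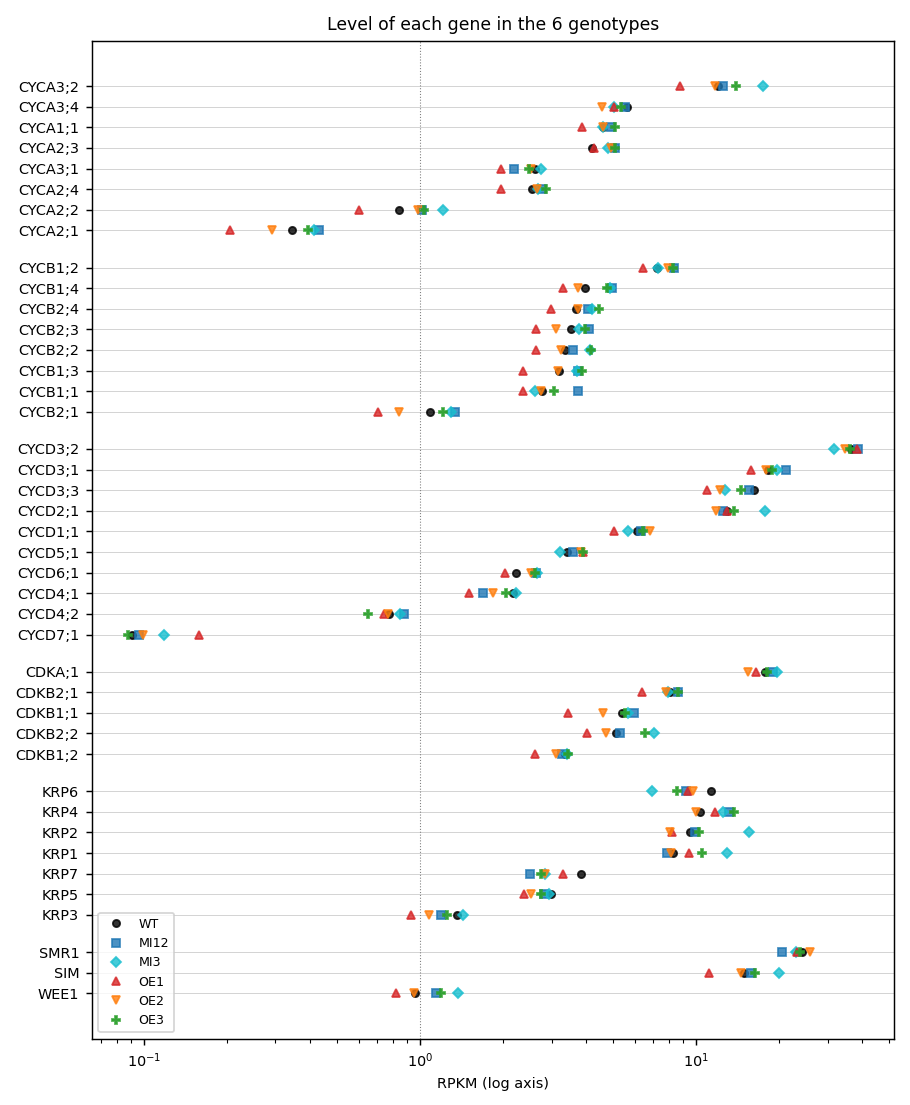
RPKM on a log axis for each of the 41 members, with 1 point per genotype, ordered by family. D-type cyclins span the widest range, from under 0.2 to over 30 RPKM, while the points of the 6 genotypes for most genes lie close together, with OE1 at the lower edge for B-type cyclins and CDKB genes.

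The D-type cyclins, which respond to growth signals, held both the most and the least abundant members. CYCD3;2 (AT5G67260) was at 36.6 RPKM for WT, 38.6 for MI12, 31.5 for MI3, 38.4 for OE1, 34.5 for OE2 and 36.1 for OE3. Its lowest value was in MI3, and OE1 lay slightly above WT. CYCD3;1 (AT4G34160) was at 18.3 RPKM for WT, 21.2 for MI12, 19.6 for MI3, 15.9 for OE1, 17.9 for OE2 and 18.8 for OE3. This gene is induced by cytokinin, and OE1 was the lowest genotype and MI12 the highest. CYCD3;3 (AT3G50070) was at 16.3 RPKM for WT, 15.5 for MI12, 12.7 for MI3, 11.0 for OE1, 12.2 for OE2 and 14.6 for OE3. The value was highest in WT, and its ratio to WT was 0.674 (interval 0.634 to 0.716) in OE1, 0.752 (interval 0.706 to 0.800) in OE2 and 0.781 (interval 0.725 to 0.840) in MI3, so the 3 CYCD3 paralogues did not move alike. CYCD2;1 (AT2G22490) was at 12.9 RPKM for WT, 12.5 for MI12, 17.8 for MI3, 13.0 for OE1, 11.8 for OE2 and 13.7 for OE3. For this sucrose-responsive cyclin only MI3 stood away from the other 5 values, with a ratio to WT of 1.38 (interval 1.30 to 1.46). CYCD1;1 (AT1G70210) was at 6.14 RPKM for WT, 6.32 for MI12, 5.69 for MI3, 5.05 for OE1, 6.79 for OE2 and 6.41 for OE3. OE1 was again the lowest. CYCD5;1 (AT4G37630) was at 3.42 RPKM for WT, 3.59 for MI12, 3.22 for MI3, 3.89 for OE1, 3.83 for OE2 and 3.91 for OE3. All 6 values lay within a narrow band and OE1 was not the lowest. CYCD4;1 (AT5G65420) was at 2.17 RPKM for WT, 1.69 for MI12, 2.23 for MI3, 1.503 for OE1, 1.84 for OE2 and 2.05 for OE3. OE1 and MI12 were the lowest, with ratios to WT of 0.693 (interval 0.604 to 0.792) and 0.778 (interval 0.681 to 0.887). CYCD6;1 (AT4G03270) was at 2.23 RPKM for WT, 2.64 for MI12, 2.66 for MI3, 2.03 for OE1, 2.53 for OE2 and 2.61 for OE3. This gene, which the root patterning factors SHR and SCR switch on for the division that separates cortex from endodermis, had its lowest value in OE1, but with a counting interval of the ratio that held 1. Its span overlaps a gene on the opposite strand (AT4G03260) by 847 bases, and whether reads were counted by strand is not stated. CYCD4;2 (AT5G10440) lay between 0.647 and 0.874 RPKM and CYCD7;1 (AT5G02110), a cyclin of the division that forms guard cells, between 0.088 and 0.158 RPKM, or 10 to 27 reads, and neither was compared. Of the 8 compared D-type cyclins, 5 were lowest in OE1, beside 22.8% of all compared genes. The family median was -0.14 in OE1 against WT, beside -0.01 for all compared genes.

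A-type cyclins were led by a member of the CYCA3 group, whose transcripts accumulate around replication. CYCA3;2 (AT1G47210) was at 12.03 RPKM for WT, 12.5 for MI12, 17.5 for MI3, 8.73 for OE1, 11.7 for OE2 and 14.0 for OE3. The highest genotype was MI3 and the lowest OE1, with ratios to WT of 1.46 (interval 1.37 to 1.55) and 0.726 (interval 0.683 to 0.771). CYCA3;4 (AT1G47230) was at 5.63 RPKM for WT, 5.54 for MI12, 5.06 for MI3, 5.07 for OE1, 4.58 for OE2 and 5.37 for OE3. Here WT was the highest and OE2 the lowest. CYCA3;1 (AT5G43080) was at 2.61 RPKM for WT, 2.20 for MI12, 2.74 for MI3, 1.96 for OE1, 2.54 for OE2 and 2.48 for OE3. OE1 was the lowest and MI12 the next. CYCA1;1 (AT1G44110) was at 4.62 RPKM for WT, 4.90 for MI12, 4.61 for MI3, 3.87 for OE1, 4.62 for OE2 and 5.10 for OE3. The other genotypes lay between 4.61 and 5.10 RPKM and OE1 below them all. CYCA2;3 (AT1G15570) was at 4.22 RPKM for WT, 5.10 for MI12, 4.79 for MI3, 4.27 for OE1, 4.91 for OE2 and 5.09 for OE3. This cyclin, which with CDKB1;1 holds back endoreduplication, was the exception of its family: WT was the lowest, and the ratio of OE1 to WT was 1.01 (interval 0.942 to 1.09). CYCA2;4 (AT1G80370) was at 2.55 RPKM for WT, 2.78 for MI12, 2.69 for MI3, 1.96 for OE1, 2.66 for OE2 and 2.87 for OE3. CYCA2;2 (AT5G11300) was at 0.840 RPKM for WT, 1.02 for MI12, 1.21 for MI3, 0.604 for OE1, 0.984 for OE2 and 1.03 for OE3. For both of these OE1 was the lowest. CYCA2;1 (AT5G25380) was under 1 RPKM in all 6 columns, between 0.205 in OE1 and 0.433 in MI12, and was not compared. Of the 7 compared A-type cyclins, 6 lay below WT in OE1, beside 51.1% of all compared genes. Of those 6 cyclins, 5 had their lowest value of the 6 genotypes there, beside 22.8% of all compared genes. The family median was -0.21, beside -0.01 for all compared genes.

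All 8 B-type cyclins, the cyclins of mitosis, were lowest in OE1 as deposited, and 7 of 8 with quantile normalization, where CYCB1;1 was not. Of all compared genes, 22.8% were lowest in OE1 as deposited. CYCB1;1 (AT4G37490) was at 2.77 RPKM for WT, 3.74 for MI12, 2.62 for MI3, 2.37 for OE1, 2.75 for OE2 and 3.07 for OE3. This gene, whose promoter and destruction box are in wide use as a reporter of dividing cells, was at 0.857 (interval 0.764 to 0.964) of WT in OE1 and at 1.35 (interval 1.22 to 1.501) in MI12, the highest genotype. CYCB1;2 (AT5G06150) was at 7.20 RPKM for WT, 8.32 for MI12, 7.30 for MI3, 6.42 for OE1, 7.94 for OE2 and 8.24 for OE3. CYCB1;3 (AT3G11520) was at 3.19 RPKM for WT, 3.74 for MI12, 3.71 for MI3, 2.37 for OE1, 3.15 for OE2 and 3.87 for OE3. CYCB1;4 (AT2G26760) was at 3.98 RPKM for WT, 4.97 for MI12, 4.90 for MI3, 3.29 for OE1, 3.73 for OE2 and 4.77 for OE3. The 4 CYCB1 genes thus had OE1 at the bottom and MI12 or OE3 at the top. CYCB2;1 (AT2G17620) was at 1.09 RPKM for WT, 1.34 for MI12, 1.30 for MI3, 0.706 for OE1, 0.842 for OE2 and 1.22 for OE3. This was the least abundant of the family, and OE1 was at 0.649 (interval 0.529 to 0.791) of WT, past 1.5-fold as a plain ratio but not after 1 RPKM is added to both values. CYCB2;2 (AT4G35620) was at 3.35 RPKM for WT, 3.60 for MI12, 4.13 for MI3, 2.62 for OE1, 3.23 for OE2 and 4.16 for OE3. CYCB2;3 (AT1G20610) was at 3.53 RPKM for WT, 4.10 for MI12, 3.78 for MI3, 2.64 for OE1, 3.12 for OE2 and 3.95 for OE3. OE2 was the second lowest for both, and OE1 the lowest. CYCB2;4 (AT1G76310) was at 3.67 RPKM for WT, 4.08 for MI12, 4.20 for MI3, 2.99 for OE1, 3.75 for OE2 and 4.46 for OE3. The summed level of the 8 genes was 28.8 RPKM in WT, then 33.9 (MI12), 31.9 (MI3), 23.4 (OE1), 28.5 (OE2) and 33.7 (OE3), so OE1 stood at 81.3% of WT, MI12 at 118% and OE3 at 117%. The counting interval of the OE1 to WT ratio lay below 1 for 8 of 8 (beside 35.3% of all genes), and the ratio itself ran from 0.649 to 0.892. In MI12 and in OE3 8 of 8 lay above WT, beside 48.4% and 58.8% of all genes. Medians were 0.17 and 0.19, beside -0.01 and 0.04 for all genes. The counting interval lay above 1 for 7 of 8 in MI12 (beside 30% of all genes) and for 6 of 8 in OE3 (beside 39.5%). In both lines the side of WT was the same for 8 of 8 under quantile normalization and under median-of-ratios scaling. Of the 50-base exonic windows, 11.3% in CYCB1;2 and 17% in CYCB2;3 occur elsewhere in the genome, so their values are less certain, whereas no such window was found for the other 39 members.

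The promoters of 6 of these 8 genes are shown because all 8 lay below WT in OE1. A further reason is that the mitotic core AACGG is the element through which MYB3R factors are known to act. Those of CYCB2;3, with 3 matches to the core, and of CYCB1;4, with none, are not printed. The sequences are the 250 bases before the annotated gene start, 5′ to 3′ on the strand of the gene, from the RefSeq TAIR10.1 genome, with each AACGG or its reverse complement CCGTT in capitals. They lie at chr4:17624309-17624558 (minus strand), chr5:1861704-1861953 (minus), chr3:3627274-3627523 (minus), chr2:7663805-7664054 (plus), chr4:16901346-16901595 (plus) and, as a B-type cyclin without a match, chr1:28630790-28631039 (minus).
CYCB1;1: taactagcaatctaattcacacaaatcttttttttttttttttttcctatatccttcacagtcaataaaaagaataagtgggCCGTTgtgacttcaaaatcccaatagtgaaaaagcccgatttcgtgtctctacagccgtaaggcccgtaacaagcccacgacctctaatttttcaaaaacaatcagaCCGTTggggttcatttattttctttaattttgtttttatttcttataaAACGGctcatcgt
CYCB1;2: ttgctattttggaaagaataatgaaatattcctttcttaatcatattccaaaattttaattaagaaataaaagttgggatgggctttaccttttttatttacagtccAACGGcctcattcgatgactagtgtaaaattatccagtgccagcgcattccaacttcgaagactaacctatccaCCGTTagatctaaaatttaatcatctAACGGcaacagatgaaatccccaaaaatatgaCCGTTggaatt
CYCB1;3: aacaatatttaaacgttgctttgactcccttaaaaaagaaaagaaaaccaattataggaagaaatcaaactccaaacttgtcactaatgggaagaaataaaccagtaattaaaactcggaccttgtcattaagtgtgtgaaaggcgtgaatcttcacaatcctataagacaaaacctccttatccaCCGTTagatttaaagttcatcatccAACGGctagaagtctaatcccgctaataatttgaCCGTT
CYCB2;1: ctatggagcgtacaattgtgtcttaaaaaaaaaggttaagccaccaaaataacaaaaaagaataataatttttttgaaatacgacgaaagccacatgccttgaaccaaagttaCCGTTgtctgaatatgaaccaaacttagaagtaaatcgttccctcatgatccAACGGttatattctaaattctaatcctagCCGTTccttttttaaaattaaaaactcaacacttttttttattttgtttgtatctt
CYCB2;2: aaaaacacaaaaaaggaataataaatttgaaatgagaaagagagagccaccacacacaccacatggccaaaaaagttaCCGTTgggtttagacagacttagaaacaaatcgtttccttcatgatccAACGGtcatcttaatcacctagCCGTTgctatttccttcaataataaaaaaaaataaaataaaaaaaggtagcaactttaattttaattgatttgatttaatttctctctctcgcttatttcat
CYCB2;4: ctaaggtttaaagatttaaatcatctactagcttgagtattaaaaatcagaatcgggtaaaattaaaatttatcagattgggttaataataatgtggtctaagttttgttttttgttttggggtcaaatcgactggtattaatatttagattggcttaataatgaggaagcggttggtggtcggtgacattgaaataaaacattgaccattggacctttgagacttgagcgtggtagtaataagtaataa
The core was found at least 2 times in 6 of 8 B-type cyclin promoters (75%), beside 3.62% of the 27443 promoters of protein-coding genes of the same length, and at least once in 20.6% of those. Among all 41 members 12 promoters (29.3%) held it at least 2 times, 3 of them from A-type cyclins and 3 from KRP genes, and none from D-type cyclins or CDKs. The 2 B-type cyclins without a match were lowest in OE1 as well. Of the 11 compared members with 2 or more matches, 8 were lowest in OE1 (72.7%), as were 4 of 4 with 1 match and 14 of 23 without any (60.9%). The share of all compared genes lowest in OE1 was 22.8%. The E2F site, searched on both strands as TTTCCCGC, TTTGGCGC, TTTCGCGC or TTTGCCGC, was in 1 member promoter, that of CYCD3;3, and in 1.41% of all promoters. A match is a description of these letters and not a bound site.

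CDKA;1, the single kinase of its type and the partner of D-type and A-type cyclins, was abundant and steady. CDKA;1 (AT3G48750) was at 17.8 RPKM for WT, 19.1 for MI12, 19.6 for MI3, 16.5 for OE1, 15.5 for OE2 and 18.1 for OE3. Its lowest value was in OE2. The CDKB kinases, whose transcripts accumulate toward mitosis, were all lowest in OE1, beside 22.8% of all compared genes. CDKB1;1 (AT3G54180) was at 5.38 RPKM for WT, 5.95 for MI12, 5.66 for MI3, 3.45 for OE1, 4.60 for OE2 and 5.52 for OE3. Positioned on chromosome 3, 20059671 to 20061488, plus strand (TAIR10.1), it was at 0.641 (interval 0.577 to 0.711) of WT in OE1, the smallest OE1 to WT ratio among the compared members and past 1.5-fold as a plain ratio but not on the log2(RPKM + 1) scale, while MI12, MI3 and OE3 lay slightly above WT. CDKB1;2 (AT2G38620) was at 3.37 RPKM for WT, 3.28 for MI12, 3.42 for MI3, 2.62 for OE1, 3.11 for OE2 and 3.45 for OE3. CDKB2;1 (AT1G76540) was at 8.02 RPKM for WT, 8.63 for MI12, 7.92 for MI3, 6.40 for OE1, 7.77 for OE2 and 8.64 for OE3. The 2 genes lay at 0.778 and 0.797 of WT in OE1 and close to WT in the other lines. CDKB2;2 (AT1G20930) was at 5.12 RPKM for WT, 5.32 for MI12, 7.07 for MI3, 4.04 for OE1, 4.73 for OE2 and 6.55 for OE3. For this gene MI3 and OE3 were high, with ratios to WT of 1.38 (interval 1.26 to 1.51) and 1.28 (interval 1.18 to 1.38), and OE1 was the lowest. The 5 kinases summed to 39.7 RPKM in WT, 33.0 in OE1 and 43.7 in MI3, and their median difference in OE1 was -0.28. Parts of all 4 CDKB spans overlap genes on the opposite strand, by 44 to 281 bases.

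**Figure D3:**
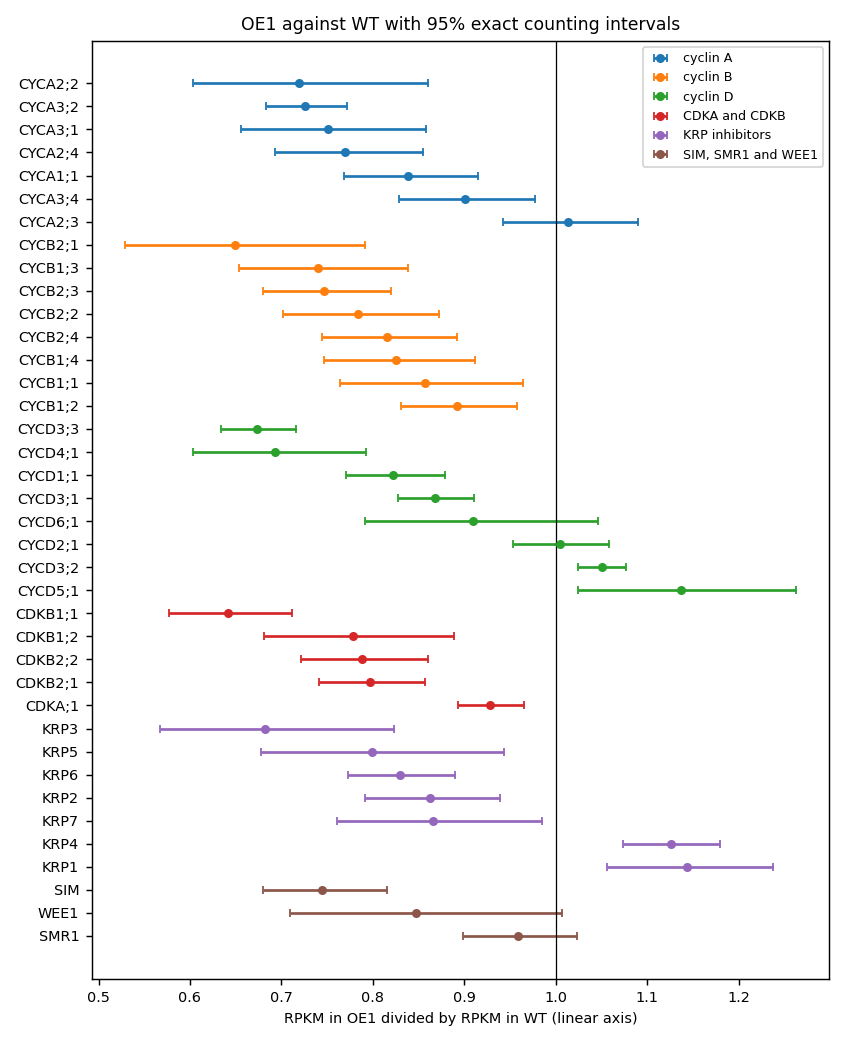
Ratio of OE1 to WT for the 38 compared members, with 95% exact counting intervals that cover counting error only, grouped by family and with a line at 1. The intervals of 29 members lie below 1 and those of 4 above it, beside 35.3% and 31.9% of all genes. The B-type cyclins and CDKs all lie to the left of the line.

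Of the 7 KRP inhibitors, 5 lay below WT in OE1 (beside 51.1% of all genes), each with a counting interval below 1 (beside 35.3%). KRP1 and KRP4 lay above WT there, and the family median was -0.19. In MI12 5 of 7 lay below WT as well (beside 51.5% of all genes). In OE2 7 of 7 did as deposited (beside 63.1%), and 5 with either scaling. The members at least 1.5-fold apart from WT on the log2(RPKM + 1) scale, all in MI3, were KRP genes. KRP1 (AT2G23430) was at 8.24 RPKM for WT, 7.85 for MI12, 12.9 for MI3, 9.42 for OE1, 8.10 for OE2 and 10.5 for OE3. Positioned on chromosome 2, 9976590 to 9978090, minus strand, it was at 1.57 (interval 1.44 to 1.71) of WT in MI3 and at 1.28 (interval 1.18 to 1.38) in OE3, with OE1 above WT as well. KRP2 (AT3G50630) was at 9.51 RPKM for WT, 9.89 for MI12, 15.6 for MI3, 8.20 for OE1, 8.08 for OE2 and 10.2 for OE3. Lying on chromosome 3, 18800306 to 18801595, plus strand, this inhibitor of the divisions that start lateral roots was at 1.64 (interval 1.505 to 1.79) of WT in MI3, and the other 5 genotypes lay between 8.08 and 10.2 RPKM. KRP6 (AT3G19150) was at 11.3 RPKM for WT, 9.19 for MI12, 6.93 for MI3, 9.39 for OE1, 9.77 for OE2 and 8.55 for OE3. Lying on chromosome 3, 6616330 to 6617951, minus strand, it was highest in WT and lowest in MI3, at 0.612 (interval 0.554 to 0.676) of WT, with OE3 the second lowest. On the log2(RPKM + 1) scale the differences of MI3 from WT were 0.59 for KRP1, 0.66 for KRP2 and -0.64 for KRP6. The KRP1 value lies at the edge of the 1.5-fold limit of 0.585 and missed it under quantile normalization, under median-of-ratios scaling and when the control was the other 4 lines' median, while KRP2 passed under all 3. The KRP6 difference did not pass against the other lines' median, which leaves out WT, its highest value.

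KRP4 (AT2G32710) was at 10.4 RPKM for WT, 13.2 for MI12, 12.6 for MI3, 11.7 for OE1, 10.0 for OE2 and 13.7 for OE3. OE3, MI12 and MI3 were the highest, at 1.32 (interval 1.27 to 1.39), 1.27 (interval 1.21 to 1.33) and 1.21 (interval 1.14 to 1.28) of WT, and OE2 the lowest. The span of this gene overlaps AT2G32720 on the opposite strand by 926 bases, so its reads may include that gene. KRP7 (AT1G49620) was at 3.83 RPKM for WT, 2.51 for MI12, 2.84 for MI3, 3.31 for OE1, 2.85 for OE2 and 2.74 for OE3. This inhibitor, which with KRP6 is removed by the F-box protein FBL17 in the male germ line, was below WT in all 5 lines, MI12 the furthest at 0.655 (interval 0.568 to 0.753), which is past 1.5-fold as a plain ratio but not on the log2(RPKM + 1) scale. KRP5 (AT3G24810) was at 2.99 RPKM for WT, 2.81 for MI12, 2.93 for MI3, 2.39 for OE1, 2.53 for OE2 and 2.76 for OE3. KRP3 (AT5G48820) was at 1.37 RPKM for WT, 1.19 for MI12, 1.43 for MI3, 0.931 for OE1, 1.08 for OE2 and 1.26 for OE3. These had their lowest value in OE1. The promoter of KRP1 (chr2:9978091-9978340, minus strand) is shown because it held 6 matches to the core, the most of any member, in a gene that OE1 held above WT.
KRP1: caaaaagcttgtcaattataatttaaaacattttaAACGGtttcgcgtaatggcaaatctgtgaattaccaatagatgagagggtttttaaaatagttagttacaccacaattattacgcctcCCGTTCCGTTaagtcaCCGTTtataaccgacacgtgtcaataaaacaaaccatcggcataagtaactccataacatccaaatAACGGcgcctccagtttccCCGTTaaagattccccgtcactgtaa
In it the capitals again mark AACGG or CCGTT.

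**Figure D4:**
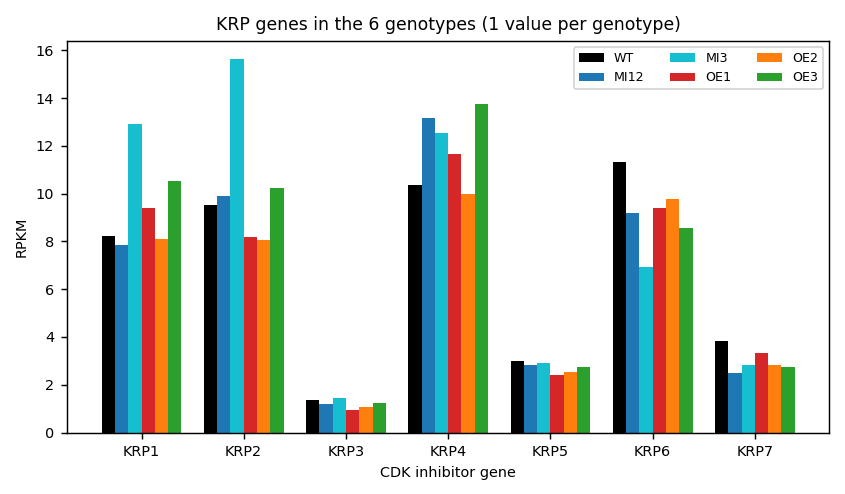
RPKM of KRP1 to KRP7 in the 6 genotypes, with 1 bar per genotype and no error bars because the table holds 1 value each. KRP1 and KRP2 have their tallest bar in MI3, at 12.9 and 15.6 RPKM, and KRP6 and KRP7 have theirs in WT, at 11.3 and 3.83 RPKM.

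SIM and SMR1, which switch cells to endoreduplication in trichomes and in sepal and leaf epidermis, were among the more abundant members. SIM (AT5G04470) was at 15.0 RPKM for WT, 15.9 for MI12, 20.0 for MI3, 11.2 for OE1, 14.5 for OE2 and 16.4 for OE3. MI3 was the highest and OE1 the lowest, with ratios to WT of 1.34 (interval 1.21 to 1.47) and 0.745 (interval 0.680 to 0.815). SMR1 (AT3G10525) was at 24.3 RPKM for WT, 20.5 for MI12, 22.9 for MI3, 23.3 for OE1, 25.9 for OE2 and 23.9 for OE3. MI12 was the lowest, at 0.845 (interval 0.790 to 0.903) of WT, and the other 5 lay close together. WEE1 (AT1G02970) was at 0.964 RPKM for WT, 1.15 for MI12, 1.37 for MI3, 0.817 for OE1, 0.954 for OE2 and 1.20 for OE3. WEE1 is a kinase that stops the cycle when replication is blocked, and its order of genotypes was the same as that of SIM at both ends, with MI3 highest and OE1 lowest. SIM and SMR1 overlap genes on the opposite strand by 338 and 375 bases.

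Taking the 38 compared members line by line, OE1 had 32 on the lower side of WT (84.2%, beside 51.1% of all compared genes) and 6 on the higher side (beside 48.9%). The counting interval of the ratio lay below 1 for 29 members (76.3%, beside 35.3% of all genes) and above 1 for 4 (beside 31.9%). The 6 members above WT were 3 D-type cyclins, an A-type cyclin, KRP1 and KRP4. The split of 32 to 6 was the same under median-of-ratios scaling (median -0.22) and under quantile normalization (median -0.17). Against the other 4 lines' median in place of WT it was -0.26. The count of 26 members lowest in OE1 was 27 with median-of-ratios scaling, which added KRP2, and 26 with quantile normalization, where KRP2 came in and CYCB1;1 dropped out. When only genes of at least 5 RPKM in 2 genotypes were kept, 9 of 19 remaining members were lowest in OE1, a smaller part than with the filter of 1 RPKM. The share of all genes lowest in OE1 was not computed under that filter, and the 22.8% given above belongs to the filter of 1 RPKM.

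MI12, in which the same PTB1 gene is lowered together with PTB2, had 26 of 38 members above WT (68.4%, beside 48.4% of all genes, with 51.5% of all genes below), with a median of 0.08 beside -0.01. The counting interval lay above 1 for 17 (44.7%, beside 30% of all genes) and below 1 for 5 (beside 33.5%). B-type cyclins made up 7 of those 17, while 5 of 7 KRP genes lay below WT. Set against the mean of OE1 and OE2, 32 of 38 members were higher in MI12 (84.2%, beside 57.1% of all genes, with 42.9% lower), with a median of 0.19 beside 0.04. OE1 and OE2 did not enter that mean alike. Against WT the members' median was -0.22 in OE1 and -0.04 in OE2, beside -0.01 and -0.05 for all genes. The B-type cyclins had the highest family median in that comparison, 0.37, followed by the CDKs with 0.24, and the single furthest member was CDKB1;1 with 0.48. No member was 1.5-fold apart there, where 2.62% of all genes were higher and 2.16% lower, and 0.325% and 0.447% at 2-fold. The split of 32 to 6 was 30 to 8 under both scalings.

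OE3 had 28 of 38 members above WT (73.7%, beside 58.8% of all genes) and a median of 0.10 beside 0.04, with counting intervals above 1 for 20 members (52.6%, beside 39.5%) and below 1 for 3 (beside 25.5%). All 5 CDKs lay above WT as deposited, but only 2 with median-of-ratios scaling and 3 with quantile normalization, so no direction is given for that family. KRP6 and KRP7 were the furthest below, at 0.755 and 0.717 of WT, and KRP4 the furthest above.

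OE2, the overexpressor of the close paralogue of PTB1, had 28 of 38 members below WT (73.7%), but so were 63.1% of all genes, with 36.8% above. With median-of-ratios scaling 21 members were above and 17 below, and with quantile normalization 20 and 18, so the side depends on the scaling. The members' median was -0.04 as deposited, beside -0.05 for all genes. Counting intervals lay below 1 for 13 members (34.2%, beside 41.8% of all genes) and above 1 for 4 (beside 20.7%). The furthest members were KRP7 and CYCD3;3, at 0.744 and 0.752 of WT. For 5 members OE2 was the lowest genotype (13.2%, beside 23.9% of all genes), among them CDKA;1, KRP2 and KRP4. The difference between OE1 and OE2 was not tested, since each has 1 column.

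MI3 had 26 of 38 members above WT (68.4%, beside 56.7% of all genes, with 43.2% below) and a median of 0.07 beside 0.05. That side also depends on the scaling, with 23 members above WT with median-of-ratios scaling and 17 with quantile normalization. Counting intervals lay above 1 for 17 members (44.7%, beside 42.7%) and below 1 for 5 (beside 30.8%). MI3 was the highest genotype for 13 members (34.2%, beside 35.6% of all genes), so it was highest about as often among the members as in the table at large. It was the lowest genotype only for CYCD3;2, CYCD5;1 and KRP6 among the compared members, whereas 24.1% of all genes were lowest in MI3. Against OE3, in which the same gene is raised, 19 members were higher and 19 lower in MI3, beside 51.1% and 48.9% of all genes, with a median of 0.01, and none was 1.5-fold apart on the log2(RPKM + 1) scale, where 4.71% of all genes were higher and 3.03% lower, and 1.15% and 0.763% at 2-fold. KRP2 was at 1.53 (interval 1.40 to 1.67) times its OE3 level and passed with a smaller constant added. The comparisons of MI3 and of OE3 with WT share the WT value. The MI3 column stands for 1 library.

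Other genes of the cycle were taken from 7 lists. In OE1, 15 of 17 compared genes of replication licensing and the replication fork were the lowest of the 6 genotypes (88.2%), as were 5 of 5 histone H3.1 genes and 14 of 18 genes of mitosis and cytokinesis (77.8%), beside 22.8% of all compared genes. Medians of these lists in OE1 against WT were -0.22, -0.47 and -0.12. The replicative helicase subunits MCM2 to MCM7 were all lowest in OE1, where MCM2 had 5.28 and MCM7 had 4.21 RPKM, against 6.82 and 5.25 RPKM for WT. CKS2, a small subunit that binds CDKs, had 11.4 RPKM in WT, OE1 had 7.19 RPKM, and it was the only gene of the mitosis list at least 1.5-fold lower. The H3.1 genes AT1G09200 (68.9 and 43.0 RPKM) and AT5G10390 (21.0 and 13.0 RPKM) were at least 1.5-fold lower too, as were 3.83% of all compared genes, though the coding sequences of these histone genes are near-identical and reads may have been divided between them. For the other lists the shares were near that of all compared genes: 2 of 9 E2F, DP and RBR1 genes (22.2%), 5 of 17 genes of the anaphase-promoting complex (29.4%), 2 of 13 CDK-activating and transcriptional CDKs with their cyclins (15.4%), and 2 of 9 other SMR inhibitors (22.2%) were lowest in OE1, with medians of 0.05, 0.02, 0.02 and -0.12. Elsewhere the inhibitor SMR7, which DNA damage induces, had 1.13 RPKM in WT beside 2.57 for MI12. On the log2(RPKM + 1) scale it was the only gene of these lists at least 1.5-fold higher than WT in any line, beside 1.13% of all compared genes in MI12. MYB3R1, a transcription factor of the MYB3R family, had 6.32 RPKM in WT beside 9.95 for OE2. Its log2(RPKM + 1) difference of 0.58 fell just short of the limit of 0.585, after 1 RPKM is added to both values. In MI3, 1 SMR gene that stayed under 2 RPKM was at least 1.5-fold below WT, beside 6.31% of all compared genes. Between MI3 and OE3, the inhibitor SMR5 was at 2.02 and 0.711 RPKM and APC10, a subunit of the anaphase-promoting complex, at 7.18 and 12.7 RPKM, both past 1.5-fold, where 4.71% of all compared genes were higher and 3.03% lower in MI3.

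**Figure D5:**
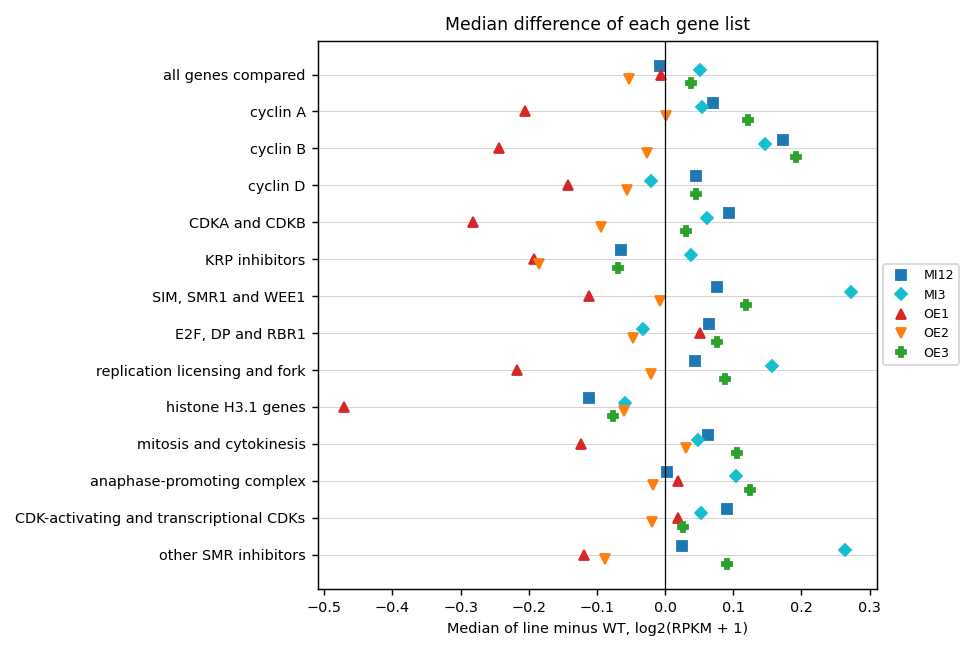
Median difference from WT, log2(RPKM + 1), of each family of members and each list of related genes in the 5 lines, with 1 point per line. In OE1 the B-type cyclins (-0.24), CDKs (-0.28), replication licensing genes (-0.22) and histone H3.1 genes (-0.47) lie below WT, while E2F, anaphase-promoting complex and CDK-activating lists lie near 0.

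Markers of the tissues a seedling holds moved with some of these values. Genes of differentiated root (the Casparian strip genes CASP1, CASP2 and MYB36 and the root hair genes COBL9 and RHD6) summed to 21.7 RPKM in WT, to 25.0 (MI12), 29.2 (MI3) and 31.0 (OE3) in the lines above it and to 18.3 (OE2) and 11.7 (OE1) in those below. OE1 was at 54.1% of WT and the lowest genotype for 5 of 5 (22.8% of all compared genes were), and CASP1, CASP2 and MYB36 were at least 1.5-fold below WT (3.83% of all compared genes were). In MI3, MYB36, COBL9 and RHD6 were at least 1.5-fold above WT, beside 8.99% of all compared genes, as was COBL9 in OE3, beside 2.35%. The root meristem list summed to between 24.0 and 27.6 RPKM, with OE1 at 101% of WT, and most of that sum came from its 2 compared genes, SHR with 6.64 RPKM in WT and 6.45 for OE1, and SCR with 15.4 and 16.8 RPKM, a median difference of 0.04. The 3 others were not compared, with PLT1 at 0.754 and 0.3 RPKM, PLT2 at 0.477 and 0.256 RPKM and WOX5 at 0.711 and 0.485 RPKM. The shoot meristem list summed to 13.7 RPKM in WT and 11.9 in OE1, the lowest, and its stem cell gene WUS was listed at 0 in MI3, OE1 and OE3 and at no more than 0.026 RPKM elsewhere. Lateral root initiation genes summed to 0.946 RPKM in WT, 0.772 in OE1, 1.29 in MI3 and 1.39 in OE3. Stomatal lineage genes summed to 25.7 RPKM in WT and between 20.6 in MI12 and 29.4 in OE2, and trichome genes to between 4.02 and 4.87 RPKM. The part of these tissues in the values of the cyclins, kinases and inhibitors was not tested.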

How the data were processed

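Total RNA of 11-day-old seedlings was sequenced from TruSeq libraries, per the labels' protocols. The authors deposited a single table of RPKM values with 1 column per genotype. The genome build was TAIR10, per the submitters' processing notes. How reads were aligned and counted, with or without strand or multiply mapping reads, and how libraries were combined were not given in the sources used here. Names, positions, gene spans and promoters came from the RefSeq TAIR10.1 annotation, which held 32835 of the table's identifiers. In WT, 1 cell held no number and was set to 0.

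Genotypes were compared by the difference of log2(RPKM + 1), on which changes of low genes appear smaller than they are. The 19669 genes that reached 1 RPKM in 2 or more columns were compared, and 1.5-fold (with 2-fold beside it) was the call. With 1 value per genotype, as the design had foreseen, there was no test. Counting intervals also need a gene span and exist for 19490 genes.

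The depth of a column was estimated from its low RPKM values, taking gene span as the divisor. Of these values, 68.5% (MI3) to 75.7% (OE3) fell within 0.1 of a whole number of reads (20% by chance), beside 40.5% to 50.1% with exon length, so read numbers are estimates. The estimate was tested on simulated data that used gene span as the divisor, so that test cannot check the choice of divisor. Intervals are 95% Clopper-Pearson and measure counting error alone, because reads carry no molecular identifiers and need not be independent molecules.

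The members and lists were chosen with earlier results of these data known. The rule named all 41 members, the PTB genes as the check of the labels and, of each other list, at most 3 genes on each side past 1.5-fold with 2 RPKM or more in the higher column, or else the furthest gene. Of the latter only those that a result turns on are given. MCM2, MCM7, WUS and the root meristem genes were picked after their values were seen. The 6 marker lists cover tissues of the seedling.

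The alternatives tried were pseudocounts (0.1 and 0.5), the low-value filter (none, or 5 RPKM in 2 columns), the scaling (median-of-ratios or quantile) and the control (the other 4 lines' median). The count of members lowest in OE1, with its alternatives, was added after seeing the data. Software was Python 3.11.15 with numpy 2.4.6, with pandas 2.3.3, with scipy 1.17.1 and, for plots, matplotlib 3.10.9.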

Additional observations from a re-analysis of the deposited data

How the results depend on the processing

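Of 146 alternative values of 22 results, 136 stayed within 1.5 times the count or within 0.1 of the median, 10 moved and none reversed a called value. The tolerance of 0.1 is larger than the size of the median in MI12, MI3 and OE2 against WT and in MI3 against OE3. For those medians a change of sign can pass as unchanged. The count of members lowest in OE1 was 26 as deposited, 27 without a filter (of 41), 27 with median-of-ratios scaling, 26 with quantile normalization (KRP2 in place of CYCB1;1) and 26 without the MI3 column, but 9 (of 19) with a filter of 5 RPKM in 2 columns, which leaves out 7 of the 8 B-type cyclins. The share of all genes lowest in OE1 (22.8%) was computed only for the values as deposited with the filter of 1 RPKM. In MI3 against WT, 1 member in place of 2 was at least 1.5-fold higher under median-of-ratios scaling, under quantile normalization and against the other 4 lines' median, KRP2 in each case, and 0 in place of 1 were lower against that median, which leaves out WT. A pseudocount of 0.1 gave 1 lower member in MI12 against WT (KRP7), 1 lower in OE1 against WT (CDKB1;1) and 1 higher in MI12 than in the OE1 and OE2 mean (CYCB2;1). Pseudocounts of 0.1 and 0.5 each gave 1 higher member in MI3 against OE3 (KRP2). The cause was not tested beyond what each alternative changes by construction. Small medians changed sign: OE2 against WT went from -0.04 to 0.02 (median-of-ratios) and 0.01 (quantile), MI3 against WT from 0.07 to -0.03 (quantile), and MI3 against OE3 from 0.01 to -0.04 (quantile) and -0.05 (5 RPKM). The OE1 median ranged from -0.27 to -0.17. No paired analysis was possible because the table holds 1 column per genotype, and for the same reason leaving out a library was not run. Depth limits MI3 most, with 46200000 reads, where KRP3, CYCB2;1, KRP5 and KRP7 held 146, 148, 158 and 185 reads.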
